A study of Mus musculus with 48 samples.

Results

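The cerebral cortex of 8 mice labelled Msh3-/- was compared with that of 8 mice labelled WT (wild type). These are 16 of the 48 libraries of the series, chosen by labelled genotype alone. Each group had 4 females and 4 males, all labelled C57BL/6 and 12 months old, and none of the 16 carried Q140, a knock-in allele of the Huntington disease gene Htt with an expanded CAG repeat. The other libraries, 8 each from Msh3+/- mice, from Q140 heterozygotes (called Q140 here) and from Q140 heterozygotes that were also Msh3+/- or Msh3-/-, served to estimate the spread and, where named, as a second set of animals. The labels do not say which part of Msh3 the mutant allele lacks, which strain it was made in or which mice were littermates. Messenger RNA counts were held for 48795 genes, of which 19547 were expressed highly enough to be tested.

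Msh3 is a DNA mismatch repair protein. As part of the complex MutS beta it binds small loops of unpaired bases and hands them to the MutL complexes for excision and resynthesis. On long CAG repeats the same steps add repeat units in somatic cells, and in mouse models of Huntington disease the loss of Msh3 keeps the repeat from growing. The mice compared here had no such repeat, so the comparison asks how cortical gene expression differs with the labelled Msh3 genotype when Q140 is absent. The labelled genotype covers the allele and any DNA inherited with it, and these were not tested apart.

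The 8 WT libraries held between 42.8 and 68.3 mega (M) counts and the 8 Msh3-/- libraries between 42.3 and 60.5 M, with medians of 46.8 and 50.4 M. The labelled sex matched the counts in 48 of 48 libraries. The cortical neuron genes Slc17a7, Cux2 and Tbr1 had medians of 1340, 214 and 194 CPM (counts scaled to a common library size of 1 M) over the 16 libraries. Markers of striatum (Drd1, 6.08 CPM, and Adora2a, 1.83 CPM), hippocampus (Prox1, 16.5 CPM) and thalamus (Prkcd, 7.07 CPM) were far lower. Blood transcripts were uneven: 3 Msh3-/- libraries (F1, F2 and F4) and 0 WT libraries held over 5 CPM of the beta-globin gene Hbb-bs. Pituitary transcripts were uneven among WT libraries, with Prl at 34.0 CPM in male M2, 5.6 in M3 and 2.77 in M4, and at 0.572 CPM or less in every Msh3-/- library. Of the WT animals, 2 (F3 and F4) have name prefixes that differ from the prefix shared by the other 6.

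The count of the targeted gene went against what the label Msh3-/- would lead one to look for. Msh3 (chromosome 13, 92211872 to 92355003, minus strand, GRCm38) ran from 20.5 to 23.5 CPM in WT (median 22.7) and from 84.2 to 108 CPM in the libraries labelled Msh3-/- (median 98.3). All 8 labelled mutants lay above all 8 WT libraries. The log2 fold change was 2.15 ± 0.045 (SE; edgeR adjusted p = 1.62e-40), with 2.11 in females and 2.18 in males. Per length of gene, Msh3 went from 1.98 to 8.83 FPKM. Libraries labelled Msh3+/- stood between the other groups at 60.1 ± 3.06 CPM (SD, n = 8). Because the deleted part is not stated, a count summed over the whole gene cannot tell how much intact transcript remained, and every direction below is that of the libraries labelled Msh3-/-.

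Across the transcriptome, edgeR called 22 of the 19547 genes at an adjusted p under 0.05, which is 0.113%. Of these, 6 were higher (0.0307% of genes tested) and 16 lower (0.0819%) in Msh3-/-. At an unadjusted p under 0.05 there were 2119 genes, or 10.8%, the share to set beside the unadjusted counts of the gene lists below. Of the 22, 13 lie on chromosome 13, the chromosome of Msh3, 4 belong to a single stretch of chromosome 7, and 5 are spread over other chromosomes. Groups that did not overlap, all 8 Msh3-/- libraries above or all 8 below WT, were found for 19 genes (0.0972% of those tested), 8 above (0.0409%) and 11 below (0.0563%), and 13 of the 19 were among the calls. All 22 had the same sign in females and in males, the sexes being parts of the same 16 libraries. For 12384 genes (63.4%) the 95% interval of the change lay within 1.25-fold in either direction, and for 18060 (92.4%) within 2-fold. Nothing in the labels says whether the replicates of a genotype share a litter, so the p-values measure the spread between these mice. Some animal names share a number, such as Mh3Q22 in WT M2 and M3. Mh3Q26 is shared by Msh3-/- F3 and by female F1 of the Q140 mice also labelled Msh3-/-. What these numbers stand for is not stated, so the mice may not all be unrelated.

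Apart from Msh3 itself, the calls clustered around it. Within 5 Mb of Msh3, 11 of 65 tested genes were called (16.9%), 2 higher and 9 lower. The nearest of them was 0.071 Mb away and the farthest 4.71 Mb. No further gene was called between there and 20 Mb, so that the 20 Mb window had 11 calls among 212 genes (5.19%). On the rest of chromosome 13 the pituitary hormone gene Prl was the single call among 454 genes, and on all other chromosomes 9 of 18801 genes were called (0.0479%). The calls away from Msh3 depended more on single libraries. In the edgeR fits without 1 library, these 10 ran from 6 (without WT M2) to 14 (without WT F2). Those within 20 Mb stayed at 10 or 11. A separate fit left out the 10 libraries of the series above 5 CPM of Hbb-bs, 3 of them Msh3-/-. It had 2 calls away from Msh3, with fewer libraries to test. Of the 11 calls near Msh3, 9 lay among the 47 tested genes toward higher coordinates and 2 among the 17 toward lower coordinates. The 54 uncalled genes within 5 Mb had log2 fold changes between -0.77 and 0.45 with a median of -0.042, and 35 of them were below 0. Called and uncalled genes were interleaved: next to Rasgrf2 on the side away from Msh3, the zinc finger gene Zcchc9 had -0.08 ± 0.055. The gene model C030017D09Rik overlaps Ankrd34b on the opposite strand, sharing 88 exon bases with it. It was barely expressed (0.129 and 0.117 CPM), and its change of -0.07 ± 0.418 was loosely bounded.

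**Figure D1:**
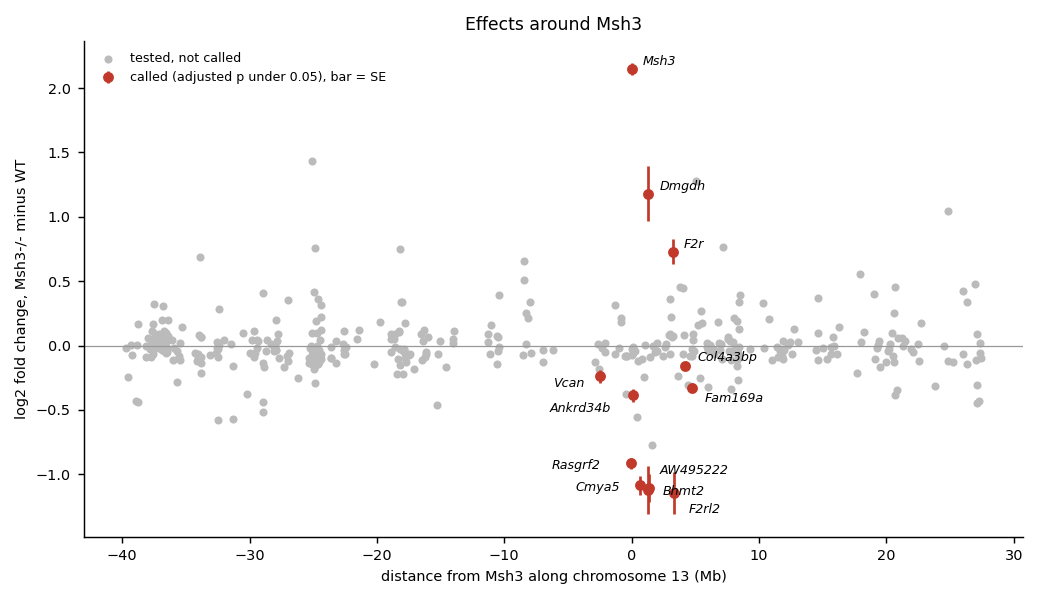
Log2 fold change of Msh3-/- against WT (vertical axis) for each tested gene against its distance from Msh3 in Mb (horizontal axis), with called genes in red and their standard errors as bars. The 11 called neighbours all lie within 4.71 Mb of Msh3, 9 of them on the side of higher coordinates and 9 of them below 0.

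Rasgrf2 had the smallest p of these genes. It encodes a calcium-regulated exchange factor that loads Ras and Rac with GTP downstream of glutamate receptors, and in the cortex it marks upper-layer neurons. It lies 0.08 Mb from Msh3 (chromosome 13, 91880400 to 92131656, minus strand). Its count ran from 292 to 375 CPM in WT (median 339) and from 156 to 194 CPM in Msh3-/- (median 178), with a wide gap between the groups. Rasgrf2 fell by 0.92 ± 0.044 on the log2 scale (edgeR adjusted p = 9.18e-23). The group means were 331 ± 26.1 CPM in WT, 275 ± 13.9 in Msh3+/- and 176 ± 12.5 in Msh3-/- (SD, n = 8 each). Per length they were 37.3, 31.1 and 20 FPKM. In Msh3+/- against WT, where edgeR called 6 genes in all (0.0307%), Rasgrf2 had -0.27 (adjusted p = 0.000837). The RefSeq start of Rasgrf2 lies upstream of the gene coordinates given above, which come from GENCODE. The sequence just upstream of that RefSeq start is shown because no gene other than Msh3 differed with a smaller p. It is 250 bases at chr13:92131829-92132078 on GRCm38.p6, minus strand, written 5′ to 3′, with capitals marking an E box.
Rasgrf2 upstream: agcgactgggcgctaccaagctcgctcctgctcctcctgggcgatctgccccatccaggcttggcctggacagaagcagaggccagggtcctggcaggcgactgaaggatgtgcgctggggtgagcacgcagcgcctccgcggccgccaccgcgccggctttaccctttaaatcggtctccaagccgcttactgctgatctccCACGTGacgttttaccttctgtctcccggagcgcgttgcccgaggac
The motifs searched here and below were the E box CACGTG, which reads the same on both strands, and the GC box GGGCGG or its reverse complement CCGCCC. The 2 motifs have no overlap with each other in these stretches. Among RefSeq windows of the same length, 6.02% hold the E box and 32.7% the GC box, of which Rasgrf2 has 1 E box and 0 GC boxes.

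Of the 33 genes in the list of Ras exchange factors and the MAP kinase pathway, Rasgrf2 was the single call (1 lower, 0 higher), and the list median was -0.017 beside 0.0054 over all tested genes. Its closest relative Rasgrf1 had 494 CPM in WT and 514 in Msh3-/- (0.06 ± 0.061). Among the others, Rac1, a small GTPase gene, had -0.11 ± 0.034 (edgeR adjusted p = 0.294). The 17 other upper-layer neuron genes, a list without Rasgrf2, had a median of 0.038 with 11 above 0 and 0 called (1 at an unadjusted p under 0.05).

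A pair of thrombin receptor genes that neighbour each other moved in opposite directions. F2r encodes PAR1, the main thrombin receptor, and F2rl2 encodes PAR3, a coreceptor for thrombin. F2r (95601803 to 95618487, minus strand) ran from 3.05 to 4.63 CPM in WT (median 3.73) and from 5.13 to 8.16 in Msh3-/- (median 6.16). F2rl2 (95696853 to 95702739, plus strand) ran from 1.68 to 3.75 CPM in WT (median 2.61) and from 0.778 to 1.6 in Msh3-/- (median 1.19). Neither gene had overlapping groups. F2r rose by 0.73 ± 0.0995 on the log2 scale (edgeR adjusted p = 3.49e-06) and F2rl2 fell by 1.14 ± 0.164 (adjusted p = 1.12e-05). In Msh3+/- the means were 4.78 ± 0.85 CPM for F2r and 1.78 ± 0.553 CPM for F2rl2. The third receptor gene of this cluster, F2rl1, which encodes the trypsin receptor PAR2, was barely expressed (0.191 and 0.199 CPM). F2rl2 lies inside Iqgap2 on the opposite strand without sharing exon bases, and Iqgap2, a scaffold protein gene, had 0.08 ± 0.093. Of the 14 tested genes in the list of thrombin receptors and coagulation, 1 rose and 1 fell, and the list median was -0.072. The upstream stretches of both receptors are shown because these neighbours changed in opposite directions. F2r is at chr13:95618488-95618716 (229 bases, minus strand) and F2rl2 at chr13:95696670-95696852 (183 bases, plus strand), both RefSeq on GRCm38.p6 and 5′ to 3′, with capitals marking a GC box.
F2r upstream: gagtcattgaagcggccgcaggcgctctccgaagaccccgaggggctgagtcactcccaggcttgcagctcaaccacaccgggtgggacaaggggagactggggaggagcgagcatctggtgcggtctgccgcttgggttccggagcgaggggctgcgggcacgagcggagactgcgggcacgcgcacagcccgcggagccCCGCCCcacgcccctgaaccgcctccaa
F2rl2 upstream: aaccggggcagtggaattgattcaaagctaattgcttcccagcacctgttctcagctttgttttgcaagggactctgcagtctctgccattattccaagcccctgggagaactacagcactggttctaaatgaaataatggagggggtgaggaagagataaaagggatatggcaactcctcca
The F2r stretch has 1 GC box, which 32.1% of windows of its length hold, and 0 E boxes (5.74%). The F2rl2 stretch has neither motif, and 30.4% and 4.87% of windows of its length hold the GC box and the E box.

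A second neighbouring pair, both members of the list of folate and betaine metabolism, also moved in opposite directions. Bhmt2 encodes a methyltransferase that makes methionine from homocysteine, and Dmgdh encodes dimethylglycine dehydrogenase, the mitochondrial enzyme that demethylates dimethylglycine. Both were weakly expressed. Bhmt2 (93655720 to 93674302) ran from 0.735 to 1.28 CPM in WT (median 0.962) and from 0.26 to 0.741 in Msh3-/- (median 0.48), which corresponds to 32 to 74 and 13 to 44 counts per library. Dmgdh (93674433 to 93752833) ran from 0.354 to 0.747 CPM in WT (median 0.571) and from 0.94 to 1.92 in Msh3-/- (median 1.14). The groups did not overlap for Dmgdh, and for Bhmt2 they overlapped only where the highest Msh3-/- library passed the lowest WT library. Bhmt2 fell by 1.12 ± 0.188 (edgeR adjusted p = 0.000325) and Dmgdh rose by 1.18 ± 0.213 (adjusted p = 0.00141). With a plate row term Dmgdh had 1.01 and was not called (adjusted p = 0.102). The Msh3+/- means were 0.771 ± 0.235 CPM for Bhmt2 and 0.98 ± 0.26 for Dmgdh. The gene model AW495222 lies within Dmgdh on the opposite strand, sharing 215 exon bases with it. AW495222 ran from 3.84 to 5.68 CPM in WT (median 5.35) and from 1.47 to 3.17 in Msh3-/- (median 2.4), without overlap, and fell by 1.11 ± 0.112 (edgeR adjusted p = 6.33e-10). Whether the counting used strand is not given in the sources used here, so reads from the shared stretch of Dmgdh and AW495222 may have been divided between them or left out.

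The first exons of Bhmt2 and Dmgdh lie back to back, 130 bases apart. The stretch between them is shown because the genes on its flanks changed in opposite directions. It is RefSeq GRCm38.p6 chr13:93674303-93674432, written on the plus strand 5′ to 3′, so that Bhmt2 is read leftward from its left end and Dmgdh rightward from its right end, with capitals marking a GC box.
Between Bhmt2 and Dmgdh: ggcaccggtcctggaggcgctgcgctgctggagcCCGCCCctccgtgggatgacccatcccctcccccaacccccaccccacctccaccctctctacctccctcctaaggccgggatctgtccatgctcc
The stretch has 1 GC box, which 27.3% of windows of its length hold, and 0 E boxes (3.88%). Of the 30 tested genes in the list of folate and betaine metabolism, Dmgdh was the only one called higher and Bhmt2 the only one called lower, with 13 members above 0, 17 below and a list median of -0.0014. Next in the list were the sarcosine dehydrogenase gene Sardh, the enzyme that follows Dmgdh in this pathway (10.5 CPM in WT and 12 in Msh3-/-, 0.19 ± 0.063, edgeR adjusted p = 0.312), and the folate transporter gene Slc19a1 (0.12 ± 0.055, adjusted p = 0.411).

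The remaining genes near Msh3 were all lower. Cmya5 encodes myospryn, a large anchoring protein best known from muscle, and lies 0.686 Mb from Msh3. It ran from 14.7 to 19.4 CPM in WT (median 16.4) and from 6.83 to 9.17 in Msh3-/- (median 7.64). There was no overlap, and Cmya5 fell by 1.09 ± 0.073 (edgeR adjusted p = 1.52e-16), with 13.3 ± 1.52 CPM in Msh3+/- (-0.33, adjusted p = 0.0432). Ankrd34b, an ankyrin repeat gene and the nearest call at 0.071 Mb, ran from 22.5 to 30.6 CPM in WT (median 26.4) and from 17.3 to 21.5 in Msh3-/- (median 20.5). It fell by 0.39 ± 0.049 (edgeR adjusted p = 6.59e-07), again without overlap, and Msh3+/- had 23.1 ± 1.33 CPM. Fam169a, the farthest of these calls at 4.71 Mb, ran from 76.5 to 83.5 CPM in WT (median 81.1) and from 58.4 to 71.6 in Msh3-/- (median 64.8). Fam169a fell by 0.33 ± 0.033 (edgeR adjusted p = 6.33e-10) with no overlap, and Msh3+/- had 73.3 ± 4.28 CPM. Its exons share 1590 bases with Nsa2, a ribosome biogenesis gene on the opposite strand, which had -0.03 ± 0.065.

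Smaller decreases were seen in Col4a3bp, which encodes the ceramide transfer protein, and Vcan, which encodes the matrix proteoglycan versican. Col4a3bp ran from 77.8 to 87.6 CPM in WT (median 83.3) and from 68.9 to 78.2 in Msh3-/- (median 75.3). Vcan ran from 19.7 to 22.8 CPM in WT (median 21.4) and from 15.8 to 20.2 in Msh3-/- (median 18.2). The groups overlapped at the edges in both genes. The log2 fold changes were -0.16 ± 0.033 for Col4a3bp (edgeR adjusted p = 0.013) and -0.24 ± 0.052 for Vcan (adjusted p = 0.0256). These calls were less firm than those above: leaving out 1 library at a time, Vcan was called in 6 of 16 fits and Col4a3bp in 14. The list of extracellular matrix and perineuronal net genes had 1 call in 20, Vcan, and a median of -0.013. Hapln1, a link protein gene 2.6 Mb from Msh3 beside Vcan, had 25.2 and 22.3 CPM (-0.18 ± 0.066, edgeR adjusted p = 0.334).

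**Figure D2:**
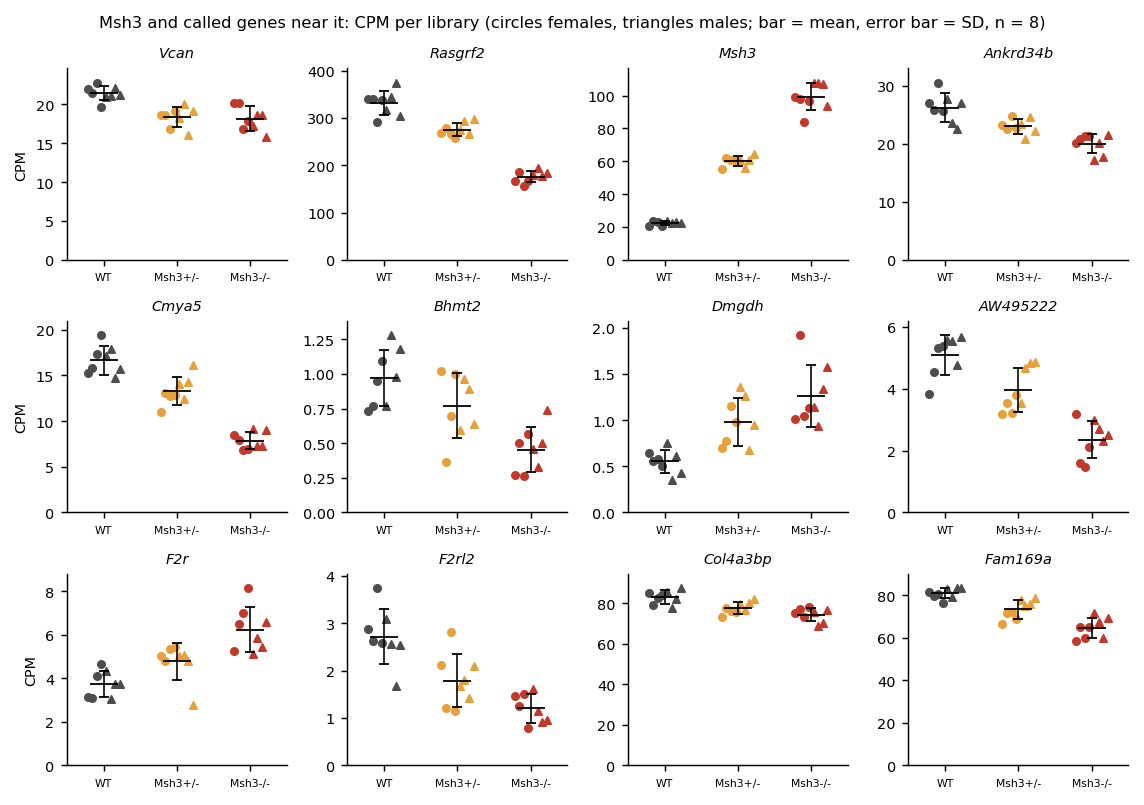
CPM per library (vertical axes) of Msh3 and its 11 called neighbours in WT, Msh3+/- and Msh3-/- (8 libraries each, circles females and triangles males, with mean and SD). Msh3, F2r and Dmgdh are higher in Msh3-/- and the other 9 genes lower, with Rasgrf2 at 331, 275 and 176 CPM across the 3 genotypes.

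A cluster of 4 gene models on chromosome 7 (36710174 to 36734558) gave the calls of largest fold outside chromosome 13. Gm37452, Gm38340, E230020A03Rik and Gm37827 all lie inside Tshz3, a zinc finger gene of projection neurons, on its strand and without sharing its exon bases. Gm37827 ran from 0.666 to 3.06 CPM in WT (median 1.07) and from 0.124 to 0.471 in Msh3-/- (median 0.176). E230020A03Rik ran from 1.25 to 6.56 CPM in WT (median 2.17) and from 0.297 to 0.926 in Msh3-/- (median 0.481). Gm38340 ran from 1.38 to 11.3 CPM in WT (median 2.99) and from 0.575 to 1.21 in Msh3-/- (median 0.884). The groups overlapped only in Gm37452, which had medians of 0.621 and 0.129 CPM. On the log2 scale the differences were -2.62 ± 0.341 for Gm37827 (edgeR adjusted p = 1.98e-06), -2.34 ± 0.347 for E230020A03Rik (6.71e-05), -2.27 ± 0.355 for Gm38340 (0.00019) and -2.55 ± 0.403 for Gm37452 (0.000136). Tshz3 itself had 62.2 and 55.8 CPM (-0.16 ± 0.046, adjusted p = 0.262).

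The WT values of these models spread widely, and the highest belonged to the mice with other name prefixes. For Gm38340, the 6 WT mice of the common prefix ran from 1.38 to 3.82 CPM and the other 2 from 5.93 to 11.3 CPM. Without those 2 mice all 4 models were still called, with log2 fold changes of -2.27 for Gm37827, -1.85 for E230020A03Rik, -1.87 for Gm37452 and -1.71 for Gm38340 (edgeR adjusted p from 0.000156 to 0.0222). Without the 10 libraries of the series above 5 CPM of Hbb-bs, Gm37827 was called (adjusted p = 0.00152) and the other 3 were not (0.0596 to 0.0878), with 5 Msh3-/- libraries left. In Msh3+/- against WT, which uses the same WT libraries, the values were -2.35 for Gm37827, -2.02 for E230020A03Rik, -1.89 for Gm38340 and -1.35 for Gm37452.

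Outside chromosomes 7 and 13, 5 genes were called. Insm1 encodes a zinc finger transcription factor of neuronal progenitors and neuroendocrine cells (chromosome 2, 146221921 to 146225020). It ran from 3.58 to 5.74 CPM in WT (median 4.11) and from 4.98 to 8.32 in Msh3-/- (median 6.29), overlapping at the edges. Insm1 rose by 0.55 ± 0.104 (edgeR adjusted p = 0.00293). Tesk2 encodes a kinase of the actin regulator cofilin (chromosome 4, 116720948 to 116805956). It ran from 4.21 to 5.12 CPM in WT (median 4.88) and from 5.42 to 5.97 in Msh3-/- (median 5.83), the only one of the 5 without overlap, and rose by 0.28 ± 0.061 (adjusted p = 0.0258). Tesk2 shares 1212 exon bases with Toe1 on the opposite strand and 405 with Ccdc163, which had 0.00 ± 0.062 and 0.06 ± 0.127.

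The other calls of this group were smaller or had less certain reads. The model C230034O21Rik ran from 1.74 to 3.03 CPM in WT (median 2.32) and from 2.91 to 3.94 in Msh3-/- (median 3.23), and rose by 0.47 ± 0.102 (edgeR adjusted p = 0.0257). It shares 1209 exon bases with the protocadherin gene Fat4 on the opposite strand, which had 0.07 ± 0.071. Tbl1x, an X-linked subunit of the NCoR corepressor complex, ran from 85.4 to 98.4 CPM in WT (median 91.1) and from 77.5 to 86.8 in Msh3-/- (median 82.0), and fell by 0.16 ± 0.033 (adjusted p = 0.0162). Wdr44, an X-linked gene for a Rab11-binding protein, ran from 17.4 to 21.1 CPM in WT (median 19.2) and from 16.2 to 18.5 in Msh3-/- (median 16.8), and fell by 0.18 ± 0.042 (adjusted p = 0.0499). In each of these 5 genes the WT mean was the lowest or the highest of all 6 genotypes, as it was in 6 of the 11 genes near Msh3. A call for Msh3-/- against WT itself favours an extreme WT mean, and the share over all tested genes was not taken. C230034O21Rik was also called in Q140 against WT (0.53, adjusted p = 0.00654), a comparison that shares the WT libraries. Over the 16 fits without 1 library, Insm1 was called in 16, Tbl1x in 12, Tesk2 in 8, C230034O21Rik in 7 and Wdr44 in 2. Insm1 was not called with only the 16 libraries in the fit (edgeR adjusted p = 0.0715) or without the libraries high in Hbb-bs (0.0804). Over the 15 alternatives Insm1 was called in 12, Tesk2 in 9, Tbl1x and C230034O21Rik in 8 and Wdr44 in 4.

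**Figure D3:**
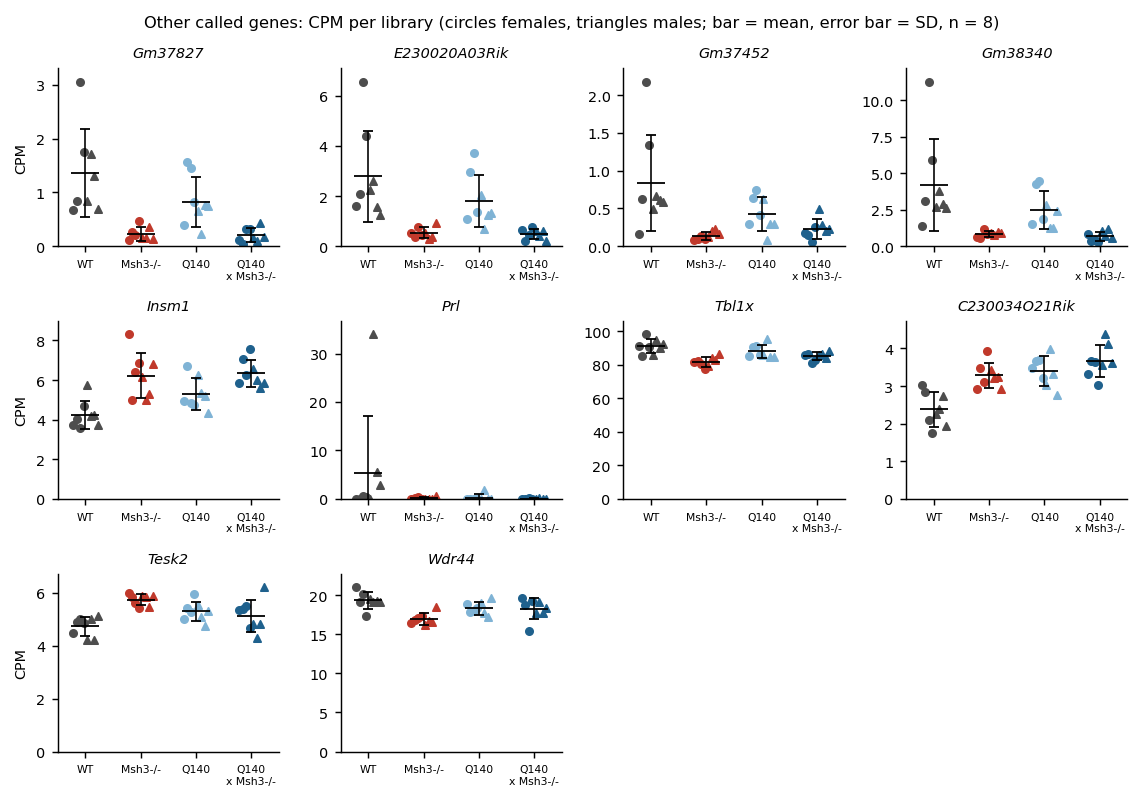
CPM per library (vertical axes) of the 10 called genes that are not near Msh3, in WT, Msh3-/-, Q140 and Q140 x Msh3-/- (8 libraries each, circles females and triangles males, with mean and SD). The 4 chromosome 7 models are lower in both Msh3-/- groups, while Prl is highest in WT M2 at 34.0 CPM, followed by WT M3 at 5.6 and M4 at 2.77 CPM.

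Prl, the gene of the pituitary hormone prolactin, lies on chromosome 13 far from Msh3 (27057570 to 27065205). It ran from 0 to 34.0 CPM in WT (median 0.528) and from 0 to 0.572 CPM in Msh3-/- (median 0.00919), so the groups overlapped at 0. WT M2 held the 34.0 CPM, followed by M3 with 5.6 and M4 with 2.77. The fitted log2 fold change was -5.28 ± 1.018 (edgeR adjusted p = 0.00364). Without WT M2 it was -3.52 with an adjusted p of 0.331, and DESeq2 on all libraries gave an adjusted p of 0.424. Of the 5 pituitary genes tested, Prl was the single call, Gh had 1.29 and 0.251 CPM, Pomc 1.14 and 0.622 CPM, and the list median was -0.88.

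The Q140 mice provided the same genotype contrast in 16 other animals: Q140 mice that were also labelled Msh3-/- against Q140 mice, with no library in common with the comparison above. There edgeR called 20 genes (0.102%), 7 higher (0.0358%) and 13 lower (0.0665%). Of the 22 genes, 21 had the same direction in these animals and 12 were called. The genes within 5 Mb of Msh3 carried most of this: 11 of 11 had the same direction and 9 were called. Rasgrf2 had -0.90 (edgeR adjusted p = 2.18e-22), Cmya5 -1.09, Fam169a -0.33, AW495222 -1.10 and F2rl2 -1.02. Ankrd34b had -0.32, F2r 0.67 (adjusted p = 2.92e-05), Bhmt2 -0.95 (0.00479) and Col4a3bp -0.15 (0.04). Msh3 itself had 2.13.

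The exceptions near Msh3 were Vcan and Dmgdh. Vcan had -0.13 (edgeR adjusted p = 0.688). Dmgdh had 0.43 ± 0.193 (adjusted p = 0.712), with 0.869 CPM in Q140 against 0.554 in WT, and the difference between its effects in the 2 backgrounds had an unadjusted p of 0.0135. On chromosome 7, 4 of 4 models had the same direction and 2 were called, Gm37827 at -1.93 (adjusted p = 0.0139) and E230020A03Rik at -1.86 (0.0301). Of the 5 genes on other chromosomes, 4 had the same direction and none was called by edgeR. All 5 of them had an unadjusted p under 0.05 for the difference between backgrounds, Insm1 moving from 0.55 to 0.26 and Tesk2 from 0.28 to -0.04. Over all 19547 genes, edgeR called 0 such differences, with 626 at an unadjusted p under 0.05. The difference reuses the Msh3-/- and WT values by which a gene was called, and this favours a small p. For called genes such a p is therefore no separate evidence that the effect depends on Q140. Over all tested genes the direction was shared by 63.2%, and over the 2097 uncalled genes with an unadjusted p under 0.05 in Msh3-/- against WT by 80.7%.

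**Figure D4:**
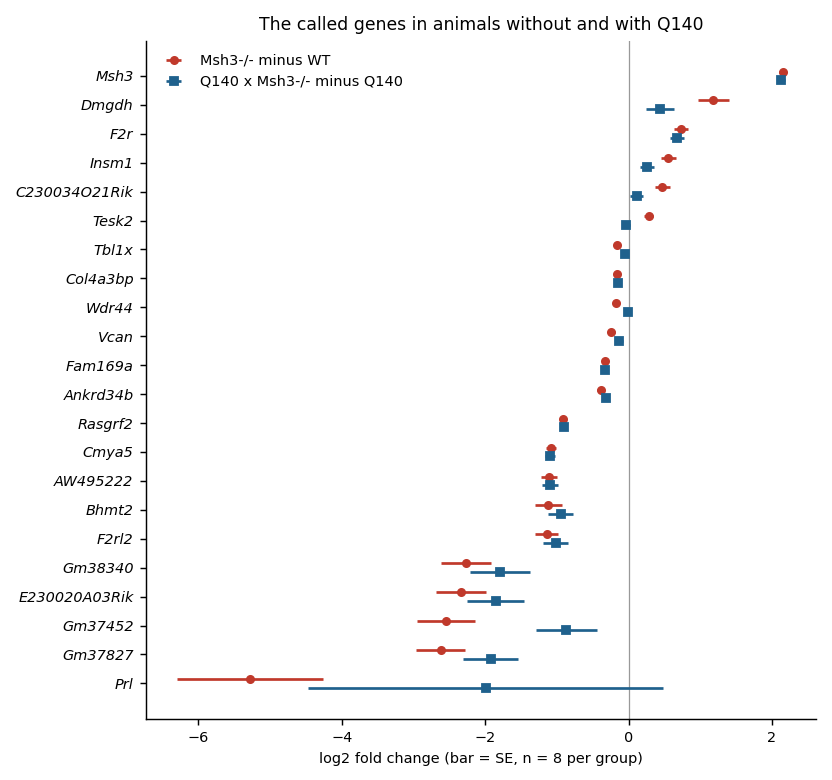
Log2 fold change with SE (horizontal axis) of the 22 called genes in Msh3-/- against WT and, from other animals, in Q140 x Msh3-/- against Q140. Most genes near Msh3 lie close together in the 2 contrasts, Rasgrf2 at -0.92 and -0.90, but Dmgdh and Vcan changed less in the Q140 animals. Tesk2 stands at 0.28 and -0.04.

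Females and males were also fitted apart. EdgeR called 13 genes in females (0.0665%) and 10 in males (0.0512%). The difference between the sexes was called in 0 of 19547 genes, with 945 at an unadjusted p under 0.05.

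Other mismatch repair genes showed no call. Of 24 tested genes of the pathway, Msh3 not counted, edgeR called 0, with 1 at an unadjusted p under 0.05, and the list median was 0.022. Msh6, the subunit that defines the sister complex MutS alpha, had 20.7 and 20.1 CPM (-0.04 ± 0.049), and the MutL gene Pms2 had 0.02 ± 0.048. The smallest p belonged to Fan1, a nuclease gene that counteracts repeat expansion, with 9.72 and 11 CPM (0.17 ± 0.067, edgeR adjusted p = 0.372). The summed level of the 24 genes ran from 352 to 359 CPM in WT and from 348 to 367 CPM in Msh3-/-. Of 35 other DNA repair genes and 25 genes of the p53 response, 0 were called, with 6 and 4 at an unadjusted p under 0.05 and medians of 0.051 and -0.0036.

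Among the 30 gene lists examined, 5 held a called member, the Ras, matrix, folate and betaine, thrombin and pituitary lists described above. In the other 25, edgeR called 0 members. Over all 19547 tested genes, 9335 were below 0. Members of a list can vary together over the same libraries, so their signs are not separate observations. Layer 5 neuron genes were on 1 side throughout: 14 of 14 were below 0 with a median of -0.13, and Deptor and Fezf2, the latter a selector gene of subcerebral projection neurons, had -0.17 ± 0.057 and -0.18 ± 0.073 (edgeR adjusted p = 0.309 and 0.389). Their summed level ran from 579 to 649 CPM in WT and from 484 to 619 in Msh3-/-, overlapping over much of the range, and the list median in the Q140 animals was -0.14. Fewer cells of a type and less RNA per cell cannot be told apart in such tissue samples. Meningeal genes were below 0 in 15 of 15 (median -0.16, and -0.27 in the Q140 animals). Summed, they had a median of 559 CPM in WT (341 to 755) and of 455 CPM in Msh3-/- (348 to 794). Genes of the mitochondrial chromosome were below 0 in 13 of 13 list members (median -0.19, and -0.093 in the Q140 animals). The smallest p among them belonged to mt-Nd6 (-0.30 ± 0.133, edgeR adjusted p = 0.421). Summed, the 13 genes had a median of 45400 CPM in WT (40000 to 56400) and of 43900 CPM in Msh3-/- (35600 to 50100).

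Further lists leaned the same way without a call. Oligodendrocyte and myelin genes were below 0 in 19 of 20 (median -0.082, and -0.011 in the Q140 animals). Their summed level did not follow, with a median of 2480 CPM in WT (2170 to 3100) and of 2550 CPM in Msh3-/- (1870 to 2820). Endothelial and mural genes were below 0 in 21 of 22 (median -0.056, but 0.027 in the Q140 animals). Summed, they ran from 573 to 728 CPM in WT and from 569 to 709 CPM in Msh3-/-. Astrocytes (0.0056), microglia (0.025) and GABAergic interneurons (0.038) had medians near 0. Immediate early genes had a median of -0.041, neuropeptides -0.055, glutamate receptors and postsynaptic genes -0.00084, nuclear oxidative phosphorylation genes 0.0016 and cytosolic ribosomal proteins 0.005. Blood genes were above 0 in 4 of 4 tested, with a median of 2.9, and of 0.43 in the Q140 animals. Their summed level ran from 0.0699 to 1.25 CPM in WT and from 0.278 to 22.3 CPM in Msh3-/-. The part that blood, pituitary or meningeal RNA has in the results above was not tested, beyond the fits without the libraries named.

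**Figure D5:**
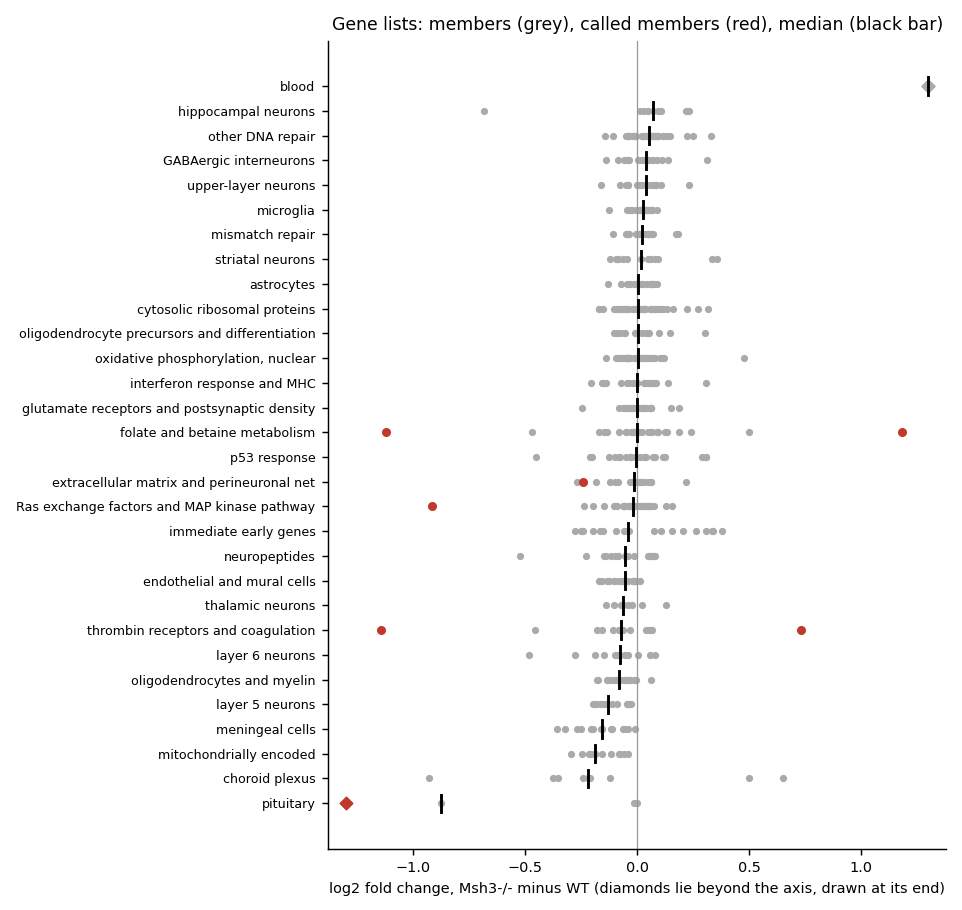
Log2 fold change of Msh3-/- against WT (horizontal axis) for the tested members of 30 gene lists (points) with the list medians (bars), and diamonds at the edge for members beyond the axis. Most medians lie near the 0.0054 of all tested genes, layer 5 (-0.13), meningeal (-0.16) and mitochondrially encoded (-0.19) genes lie wholly below 0, and blood genes (2.9) lie above it.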

How the data were processed

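Cortical mRNA of 48 mice was sequenced from Illumina TruSeq stranded libraries, per the labels' protocols. Per the submitters' processing notes, builds GRCm38 and mm10 and tools STAR 2.7.5c, SAMtools 1.10 and HTSeq 0.12.3 are listed without their roles; the annotation and strand setting are not given in the sources used here. The authors deposited whole-number counts per gene, which were tested, and FPKM values, which served only to give levels per gene length. One protocol label mentions striatum at 6 months of age, while all other labels give cortex at 12 months. Of 48795 gene identifiers, 48435 matched GENCODE M21, which gave coordinates. Names turned into dates (27) were joined by identifier.

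In R 4.3.3, filterByExpr (minimum count 10, minimum total 15, by group), TMM and the quasi-likelihood test of edgeR 4.0.16 were run on all 48 libraries with 6 groups and sex as terms, two-sided. Calls are at a Benjamini-Hochberg adjusted p under 0.05 over all 19547 tested genes. CPM are counts divided by the TMM-scaled library total in M, given as mean ± SD. The sexes were fitted in a model of genotype by sex. Alternatives used limma 3.58.1 and DESeq2 1.42.0, other filters and scalings, plate terms, subsets of libraries and fits without 1 library. The script for the test was tested on simulated data. The standard errors cover counting error and differences between mice. Within WT and within Msh3-/-, the groups checked for this, no 2 libraries agreed within sampling noise (smallest chi-square per degree of freedom 8.28).

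Named genes are Msh3, every gene called, the 10 rising and 10 falling uncalled genes of smallest p with a mean of 20 counts or more in the higher group, the nearest neighbours of Msh3 and, in each list, the called members and the 2 of smallest p. Genes that overlap a called gene, and other pathway members, were added after their values were seen. Some genes are not reported here. The comparison, the 30 lists (568 tested genes) and the rules were chosen with earlier results of these data known.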

Additional observations from a re-analysis of the deposited data

Results flagged for a closer look

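A library was set apart where its gap to the nearest of the 8 in its group was large against the range of the group (Dixon's 95% criterion), which chance does for about 1 in 20 groups; 12 of the 206 groups examined met it (5.83%). WT M2 was far above the other WT libraries in the pituitary hormone genes Prl (34.0 CPM), Gh (6.91 CPM) and Pomc (4.25 CPM), and Msh3-/- M4 was far above its group in Gh (1.8 CPM). WT F3, which has another name prefix than most WT mice, was far above its group in the chromosome 7 models Gm37827 (3.06 CPM) and Gm38340 (11.3 CPM). Msh3-/- F4 stood out in the globin gene Hbb-bs (15.3 CPM) and Msh3-/- F1 in the choroid plexus gene Ttr (12.2 CPM). WT F2 was lowest by a wide gap in Clvs2 (23.4 CPM) and Hapln1 (20.4 CPM) and highest in Gpr6 (2.03 CPM). WT F4 was highest in the endothelial gene Esam (19.5 CPM).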

How the results depend on the processing

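Msh3, Rasgrf2, Cmya5, Fam169a, AW495222, Ankrd34b, F2r and F2rl2 (8 genes) were called under all 15 alternatives and in all 16 fits without 1 library. The counts moved more. With only the 16 libraries in the fit, edgeR called 13 genes, 3 higher and 10 lower, with 3 farther than 20 Mb from Msh3 (10 in the reported fit); females then had 7 calls, males 4, Msh3+/- against WT 2 and Q140 x Msh3-/- against Q140 12. With replicate numbers as a replicate block there were also 13 calls, 3 higher and 10 lower, 4 of them farther away, and the calls of Bhmt2 (adjusted p = 0.0547) and Insm1 (0.109) ended. The labels do not say what a replicate number shares. Same-numbered libraries had correlations from -0.0775 to 0.00862, and 0 of 8 pairs correlated best with their own number. These correlations run over all tested genes, so a pairing that touches few genes could be missed. A plate row term gave 3 higher calls. Without libraries above 5 CPM of Hbb-bs, an alternative added after the data were seen, there were 14 calls, 10 of them lower and 2 farther away. Without the libraries high in Prl or Ttr, 6 calls were farther away. DESeq2 called 23 genes. Leaving out 1 library gave 17 (WT M2) to 26 (WT F2) calls, 4 to 9 higher and 12 to 17 lower, with 10 to 11 within 20 Mb and 6 to 14 farther away. Some of these fits held fewer libraries, and the cause of these changes was not tested.

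Among the genes named by rule, directions turned only in uncalled ones. C030017D09Rik became 0.222 with plate row. Without 1 library it ran from -0.261 to 0.173, above 0 without WT F3 (0.173) and Msh3-/- F3 (0.126). Sostdc1 became -0.465 with plate row. Directions were not followed for the genes added after their values were seen. Genes under 1 CPM, such as Bhmt2 and Gm37452, rest on few counts per library (32 to 74 in WT for Bhmt2).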

Other observations

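Below the threshold, 6 genes had groups that did not overlap although they were not called, and were named for that after their values were seen. Il12rb2, an interleukin receptor subunit, had 0.288 CPM in WT and 0.0837 in Msh3-/- (log2 fold change -1.70 ± 0.421, edgeR adjusted p = 0.136), and Fyttd1, an mRNA export factor, had 71.6 and 65.2 CPM (-0.14 ± 0.033, adjusted p = 0.096). Cdk5rap2, a centrosome gene, had 26.9 and 29.4 CPM (0.13 ± 0.037), the ubiquitin ligase gene Lrsam1 42.2 and 46.7 CPM (0.14 ± 0.044), the Mediator subunit gene Med4 16.1 and 17.4 CPM (0.11 ± 0.042), and the model Gm5089 0.172 and 0.322 CPM (0.91 ± 0.289).

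Among the other uncalled genes of smallest p, Brcc3, a deubiquitinase subunit, had 28.1 and 24.7 CPM (-0.19 ± 0.045, edgeR adjusted p = 0.0982). Psmd14, a deubiquitinase of the proteasome lid, had 54.6 and 48.8 CPM (-0.16 ± 0.041, adjusted p = 0.16). On the rising side, Mex3d, an RNA-binding protein gene, had 12.3 and 14.6 CPM (0.25 ± 0.064, adjusted p = 0.153) and Dlx2, a homeobox gene of interneurons, 5.63 and 6.88 CPM (0.31 ± 0.085, adjusted p = 0.257). Nnt, the mitochondrial transhydrogenase gene, lies on chromosome 13, 27.0 Mb from Msh3, and had 26.3 ± 4.5 CPM in WT and 36.7 ± 6.0 in Msh3-/- (0.48 ± 0.129, adjusted p = 0.252).

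In the Q140 animals 8 genes were called that were not called here, 5 of them with the same sign in both comparisons. Over all tested genes the sign was shared by 63.2%, so 5 of 8 is near that share. Enpp6, a marker of newly forming oligodendrocytes, had -0.59 ± 0.113 there (edgeR adjusted p = 0.00585) and 0.15 ± 0.134 in Msh3-/- against WT. Zfp488, a regulator of oligodendrocyte differentiation, had -0.46 ± 0.090 and 0.05 ± 0.097, and Ramp1, a receptor accessory protein gene, 0.20 ± 0.046 and -0.0032 ± 0.046. Crhbp, the gene of a binding protein for corticotropin-releasing hormone, lies 3.08 Mb from Msh3 and had 0.35 ± 0.075 there (edgeR adjusted p = 0.025) and 0.22 ± 0.075 in Msh3-/- against WT (adjusted p = 0.309).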
